A study of Arabidopsis thaliana with 24 samples.

Results

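COR15A (AT2G42540) and COR15B (AT2G42530), neighbouring genes on chromosome 2, were followed in shoots and roots of chilled Arabidopsis thaliana seedlings. They were set by locus, with earlier results of these data known, so their calls and ranks are not independent of that choice. They are 2 of the 13356 genes that the array annotation pairs alone with a probe set. Each was read by 1 probe set, and both passed the filter on low values, which asked for 2 or more arrays with an intensity of 30 or above. The gene order is that of the RefSeq table for the assembly TAIR10.1.

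COR15A and COR15B encode small, hydrophilic proteins that are imported into the chloroplast stroma and are related to the late embryogenesis abundant (LEA) proteins, which accumulate when cells lose water. In the cold, CBF transcription factors bind the promoters of COR genes and raise their transcription, and the COR15 proteins then help to keep chloroplast membranes stable during freezing. COR15A is the better known of the pair and a common marker of cold acclimation in leaves.

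The plants, of the ecotype Col-0, were raised at 24 °C on Murashige and Skoog medium, with 16 h of light a day. For all groups alike, the labels give 50% humidity, ambient light of 20 microEinstein and extra light of 40 microEinstein. At day 16, 3 h into the light period, they were put at 4 °C in boxes on ice, and shoots and roots were taken after 0.5, 1, 3, 6, 12 and 24 h. Each of the 12 groups of tissue and time held 2 arrays, 24 in all, and no untreated group was among them, so each change is given against 0.5 h at 4 °C. Whether both arrays of a group stand for different cultures is not stated in the labels, so the p-values measure only how far these samples differ, and that spread may be technical. The 3, 6 and 12 h samples were taken at other hours of the day than those at 0.5 h, and the effects of cold and of daytime cannot be told apart there.

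Each probe set had a deposited intensity on a linear scale, with a trimmed mean of 100 on every array. Changes are differences of log2(intensity + 10) and were tested with limma over 16073 probe sets, with an adjusted p under 0.05 called. Replicate arrays correlated at 0.951 to 0.991 across probe sets (Pearson's r of log2 values), with the widest spread between the roots arrays at 3 h. The control probe set for 25S rRNA read 211.6 and 245.9 on the shoot arrays at 0.5 h, and 889.5 to 2885 on all others. The shoot baseline thus stood apart in this control, and the cause was not tested. Against 1 h instead, the 3 h shoot change was 2.31 for COR15A (limma, adjusted p = 0.00146) and 3.26 for COR15B (adjusted p = 1.2e-06). The median change of all tested probe sets lay between -0.21 and 0.00055 in the comparisons against 0.5 h. The median difference of shoots minus roots lay between -0.32 and -0.18.

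The tissues kept apart by their markers. The summed intensity of 3 measured green tissue genes (RCA, SBPASE and LHCB4.2, of 8 listed) was 9048 to 15845 on the 12 shoot arrays and 99.6 to 355 on the 12 root arrays. The sum of 5 measured root markers (PYK10, EXPA7, EXPA18, OSM34 and AT3G01190, of 7 listed) was 433 to 807 in shoots and 5158 to 6827 in roots.

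In shoots both genes were near the filter value during the first hour, were called higher at 3 h and had their highest intensities at 24 h. COR15A had intensities of 36.5 and 44.1 at 0.5 h, 42.6 and 66.2 at 1 h, 538 and 169 at 3 h, 1661 and 1483 at 6 h, 4236 and 4243 at 12 h, and 7066 and 7515 at 24 h. From 3 h on every shoot array was above both 0.5 h arrays, and the arrays of neighbouring times did not overlap except at 0.5 and 1 h. COR15B had intensities of 36.2 and 21.2 at 0.5 h, 23.8 and 53.9 at 1 h, 625 and 302 at 3 h, 1698 and 1640.4 at 6 h, 2991 and 3168 at 12 h, and 4071 and 4154 at 24 h. Its shoot arrays kept the same order of times, again with overlap at 0.5 and 1 h alone.

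**Figure D1:**
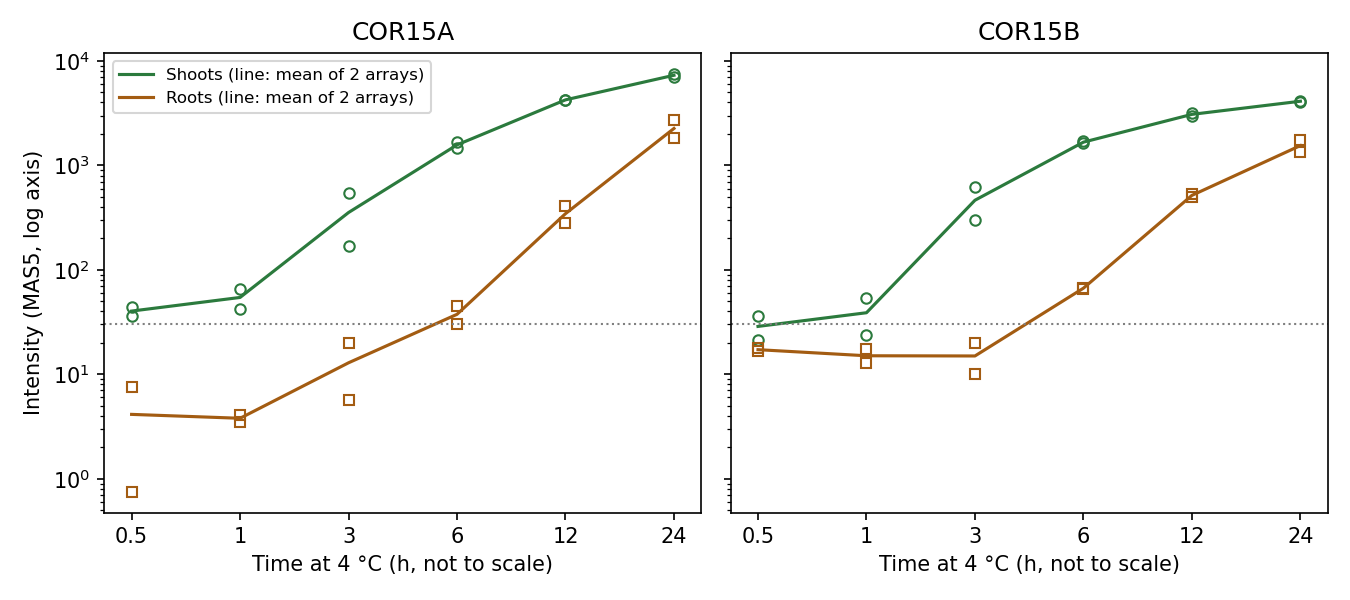
Intensity of COR15A (left) and COR15B (right) on each array against time at 4 °C, on a log axis. Circles are shoot arrays, squares are root arrays, and the dotted line marks the filter value of 30. The shoot arrays leave that line at 3 h, while all root arrays stay under it until 6 h.

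At 3 h in shoots, COR15A rose by 2.64 ± 0.40 on the log2 scale (SE, limma, 2 arrays per group, adjusted p = 0.000229) and COR15B by 3.55 ± 0.30 (adjusted p = 2.57e-07). Both of the 2 genes were called higher at 3 h, where 5.29% of the 16073 tested probe sets were. At 1 h neither passed, with changes of 0.34 ± 0.40 for COR15A (adjusted p = 0.717) and 0.29 ± 0.30 for COR15B (adjusted p = 0.664), beside 1.82% of probe sets called higher. The 3 h value of COR15A rested on arrays that differed widely: it was 1.84 without replicate 1 (adjusted p = 0.00532) and 3.45 without replicate 2 (adjusted p = 1.14e-05).

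Later in shoots the change of COR15A reached 4.98 at 6 h, 6.41 at 12 h and 7.19 ± 0.40 at 24 h (adjusted p = 1.48e-10 at 24 h). COR15B reached 5.47 at 6 h, 6.34 at 12 h and 6.76 ± 0.30 at 24 h (adjusted p = 9.36e-12 at 24 h). Probe sets called higher made up 9.74% at 6 h, 14% at 12 h and 19.2% at 24 h. Ranked by change among all tested probe sets, COR15A was at place 8 and COR15B at place 14 at 24 h. As ratios of mean intensities, 24 h over 0.5 h, this was 181-fold for COR15A. For COR15B, whose 0.5 h arrays averaged 28.7, it was at least 124.7-fold higher with the floor of 30.

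**Figure D2:**
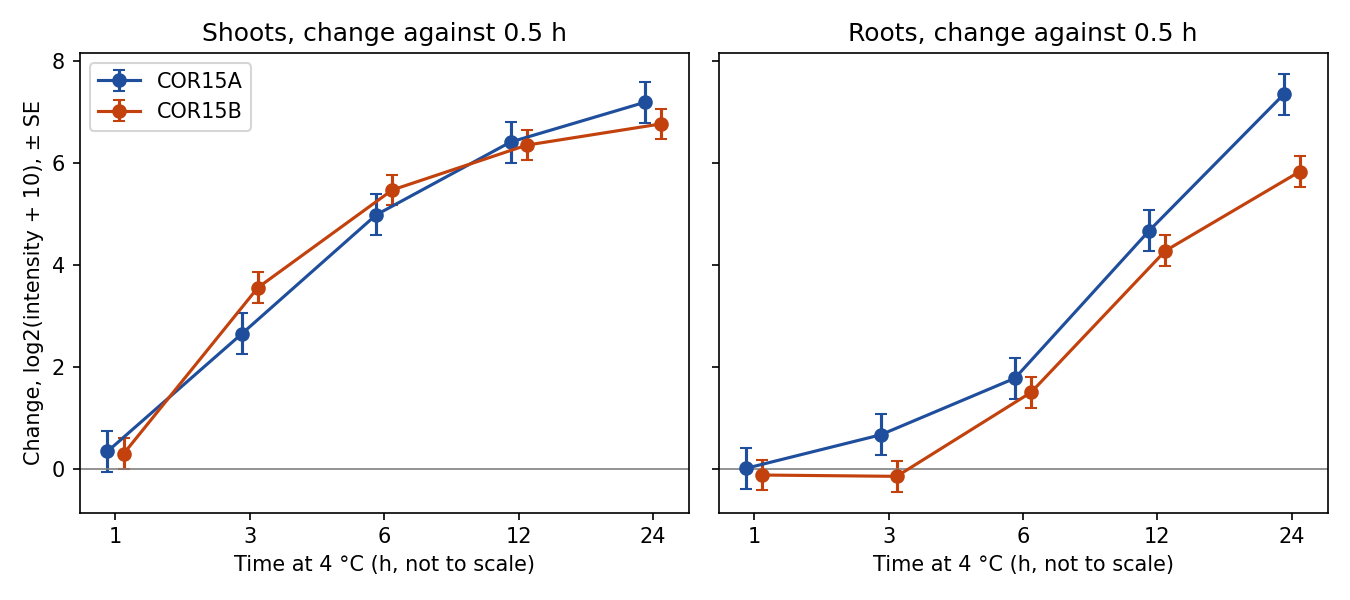
Change of COR15A (blue) and COR15B (red) against 0.5 h in shoots (left) and roots (right), in log2(intensity + 10), with standard errors from limma. In shoots the bars leave 0 at 3 h, and in roots those of both genes lie above 0 from 6 h on. The COR15A bar in roots lies above 0 already at 3 h (0.66 ± 0.40), where the change was not called.

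In shoots the steps between successive times were smaller at the later times. COR15A rose by 2.33 ± 0.40 between 3 and 6 h (adjusted p = 0.001), or by 3.14 without replicate 1 and 1.53 without replicate 2 at 3 h. It rose between 6 and 12 h, by 1.43 ± 0.40 (adjusted p = 0.0183), a call lost without any 1 of those 4 arrays, whereas its 0.78 between 12 and 24 h did not pass (adjusted p = 0.182). COR15B rose by 1.91 ± 0.30 between 3 and 6 h (adjusted p = 0.000423) and differed by 0.88 between 6 and 12 h (adjusted p = 0.0508) and by 0.42 between 12 and 24 h (adjusted p = 0.358). In these steps 3.42%, 8.04% and 10.4% of probe sets were called higher between 3 and 6 h, 6 and 12 h, and 12 and 24 h.

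In roots both genes were called higher from 6 h on and not before, at levels far under those of shoots at that time. At 1 h, 0.0187% of probe sets were called higher, and neither COR15 gene was. COR15A had intensities of 0.752 and 7.51 at 0.5 h, 3.49 and 4.10 at 1 h, 5.68 and 20.1 at 3 h, 45.0 and 30.03 at 6 h, 282 and 408 at 12 h, and 1815 and 2699.96 at 24 h. All 6 root arrays up to 3 h lay under 30 and are not ranked, and both arrays of each later time lay above all earlier ones. COR15B had intensities of 17.8 and 16.7 at 0.5 h, 17.3 and 12.8 at 1 h, 10.1 and 19.8 at 3 h, 67.5 and 66.0 at 6 h, 502 and 531 at 12 h, and 1343 and 1752 at 24 h. Again the 6 early arrays lay under 30, and the later times did not overlap each other.

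At 6 h in roots, COR15A rose by 1.77 ± 0.40 on the log2 scale (adjusted p = 0.00874) and COR15B by 1.496 ± 0.30 (adjusted p = 0.00335), beside 5.23% of probe sets called higher. Neither passed at 3 h, with 0.66 for COR15A (adjusted p = 0.511) and -0.15 for COR15B (adjusted p = 0.891), where 2.13% of probe sets were called higher. With every intensity under 30 set to 30, the 6 h change of COR15B was 1.15 (adjusted p = 0.0109), while that of COR15A was 0.29 and no longer passed (adjusted p = 0.773). The COR15A call at 6 h was also lost without replicate 1 of the 0.5 h roots (1.42, adjusted p = 0.134) or of the 6 h roots (1.54, adjusted p = 0.105).

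By 24 h the root change of COR15A was 7.34 ± 0.40 (adjusted p = 3.47e-10), at place 1 among the 16073 tested probe sets. COR15B changed by 5.83 ± 0.30 (adjusted p = 1.64e-10), at place 7. Size and place rest on the pseudocount, since the 0.5 h intensities were under 30: over the alternatives the change ran over 5.39 to 9.16 for COR15A and 4.56 to 6.40 for COR15B, and with a floor of 30 it was 6.21 for COR15A and 5.68 for COR15B. At 12 h the changes were 4.67 for COR15A (adjusted p = 1.64e-07) and 4.27 for COR15B (adjusted p = 1.33e-08), with 9.93% of probe sets called higher at 12 h and 15.5% at 24 h. Because the 0.5 h roots were under 30, the fold is given as a bound: at 24 h the intensity was at least 73.79-fold higher for COR15A and at least 51.13-fold higher for COR15B.

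In roots both late steps passed. Between 3 and 6 h COR15B rose by 1.65 ± 0.30 (adjusted p = 0.00625), while the 1.11 of COR15A did not pass (adjusted p = 0.261), beside 1.14% of probe sets called higher. COR15A rose by 2.90 ± 0.40 between 6 and 12 h (adjusted p = 0.000215) and by 2.67 between 12 and 24 h (adjusted p = 0.000546). COR15B rose by 2.78 ± 0.30 between 6 and 12 h (adjusted p = 1.94e-05) and by 1.55 between 12 and 24 h (adjusted p = 0.00362). The COR15B call between 3 and 6 h was lost without either 6 h array (1.63 and 1.66), and that between 12 and 24 h without replicate 2 at 24 h (1.36, adjusted p = 0.0563). Called higher were 3.27% of probe sets between 6 and 12 h and 5.01% between 12 and 24 h, and whether these steps differed between the tissues was not tested.

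At the same time point, COR15A was higher in shoots than in roots throughout, and COR15B from 1 h on. For COR15A the difference of shoots minus roots in log2(intensity + 10) was 1.87 at 0.5 h, 2.20 at 1 h, 3.85 at 3 h, 5.07 at 6 h, 3.60 at 12 h and 1.71 at 24 h (SE 0.40 each). All 6 passed, with adjusted p from 4.92e-09 at 6 h to 0.00127 at 24 h, but with a floor of 30 the 0.5 h and 1 h differences did not (adjusted p = 0.359 and 0.0708). The 3 h value of COR15A was 3.04 without shoot replicate 1 and 4.66 without shoot replicate 2. For COR15B the difference was 0.48 at 0.5 h, 0.90 at 1 h, 4.18 at 3 h, 4.45 at 6 h, 2.55 at 12 h and 1.42 at 24 h (SE 0.30 each).

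The COR15B difference did not pass at 0.5 h (adjusted p = 0.164). It passed at the other 5 times, with adjusted p from 5.77e-10 at 6 h to 0.0137 at 1 h, and the 1 h call was lost with a floor of 30 (adjusted p = 0.184) and without replicate 2 of shoots (0.44) or of roots (0.77). Between 23.7% and 25% of probe sets were called higher in shoots at each time, so a call by itself was common. In bulk tissue, fewer cells that express a gene and less RNA per cell cannot be told apart.

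**Figure D3:**
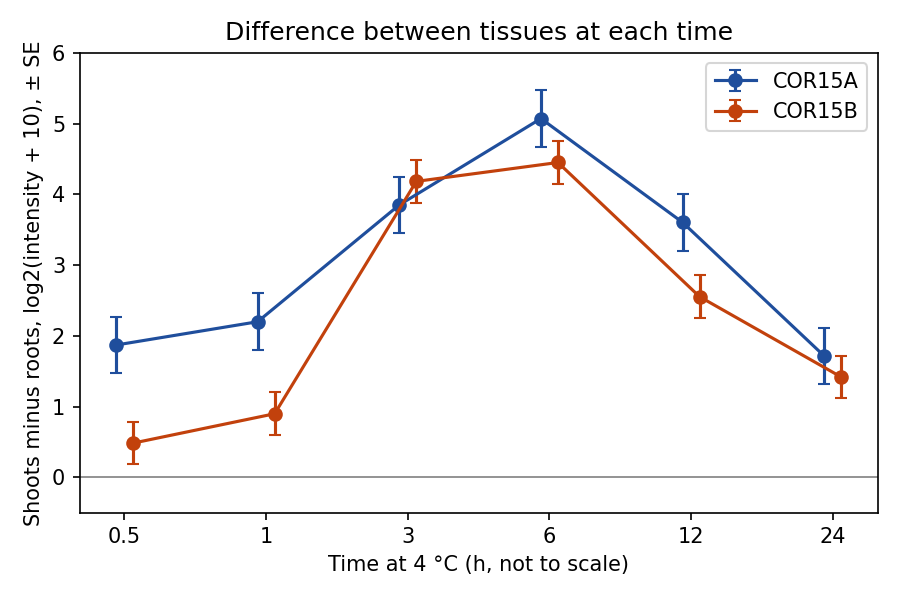
Difference of shoots minus roots in log2(intensity + 10) for COR15A (blue) and COR15B (red) at each time, with standard errors from limma. The COR15A curve is highest at 6 h, at 5.07, and the COR15B curve is at 4.18 at 3 h and 4.45 at 6 h, and at 24 h the values are 1.71 for COR15A and 1.42 for COR15B.

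As a ratio of mean intensities, shoots over roots, COR15A stood at 41.9 at 6 h and at 3.23 at 24 h, and COR15B at 30.96 at 3 h, 25.01 at 6 h and 2.66 at 24 h. Whether the COR15B difference was larger at 3 h or at 6 h depended on the setting, since with 1 added before the log it was 4.84 at 3 h and 4.62 at 6 h. The root intensity at 24 h was thus 31.0% of the shoot intensity for COR15A and 37.6% for COR15B. The summed green tissue markers in roots were 1.59% of those in shoots at 6 h and 1.06% at 24 h. One of these markers, LHCB4.2, itself fell between 0.5 and 24 h, from a mean of 53.9 to 0.95 in roots and from 4757 to 1456 in shoots. The marker share is thus not a steady measure of green tissue over time. At 6 h the root share was 2.39% for COR15A and 4% for COR15B. At 3 h the shares were 3.64% for COR15A, 3.23% for COR15B and 1.93% for the markers. The roots 3 h replicate with the higher COR15A intensity (20.1) also had the higher marker sum, 352.5 against 158.6 in the other, and the part of green tissue in its value was not tested.

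The difference between tissues in the change against 0.5 h was tested directly. For COR15B the change in shoots exceeded that in roots by 3.70 ± 0.43 at 3 h (adjusted p = 6.62e-05), 3.97 at 6 h (adjusted p = 7.46e-06) and 2.07 at 12 h (adjusted p = 0.00181). For COR15A the excess was 3.20 ± 0.57 at 6 h (adjusted p = 0.00125) and 1.74 at 12 h (adjusted p = 0.0374). With 1 added before the log neither passed, at 1.97 (adjusted p = 0.282) and 0.23 (adjusted p = 0.903), and the 12 h call was also lost without any 1 of 6 arrays (values of 1.38 to 1.84). With a floor of 30 both passed, at 4.997 (adjusted p = 1.43e-05) and 3.22 (adjusted p = 0.000351). The floor reduced the COR15A changes in roots to 0.29 at 6 h and 3.50 at 12 h, so the size of the excess rests on the setting. At 3 h the 1.98 of COR15A did not pass (adjusted p = 0.0925). It passed with 50 added before the log (1.78, adjusted p = 0.029) and with a floor of 30 (2.91, adjusted p = 0.0057). The 3 h difference also passed without shoot replicate 2 (2.79) or root replicate 2 (2.45) at 3 h. A larger change in shoots was called for 1.59% of probe sets at 3 h, 4.7% at 6 h, 10.7% at 12 h and 16.7% at 24 h.

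At 24 h the changes in the tissues were not shown to differ, with -0.16 ± 0.57 for COR15A (adjusted p = 0.864) and 0.93 ± 0.43 for COR15B (adjusted p = 0.104). These values depend on root intensities under 30 at 0.5 h. With a floor of 30, the 24 h difference was 1.30 for COR15A (adjusted p = 0.0718) and 1.29 for COR15B, which then passed (adjusted p = 0.0148).

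The order of levels over the 12 groups was nearly alike for the neighbours. For COR15A the mean intensity was highest in shoots at 24 h, followed by shoots at 12 h, roots at 24 h and shoots at 6 h, with no overlap between arrays of successive groups. Shoots at 3 h and roots at 12 h overlapped, as did shoots at 1 h, shoots at 0.5 h and roots at 6 h, and the early roots came last. For COR15B shoots at 24 h and 12 h again led, but shoots at 6 h (1698 and 1640.4) overlapped roots at 24 h (1343 and 1752). Roots at 12 h overlapped shoots at 3 h, then came roots at 6 h, shoots at 1 h and 0.5 h, which overlapped, and the early roots.

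Set against its own 24 h mean, COR15B stood at a higher share than COR15A in shoots at 3, 6 and 12 h. In shoots COR15A was at 7.39% and 2.32% of its 24 h mean at 3 h, 22.8% and 20.3% at 6 h, and 58.1% and 58.2% at 12 h. COR15B was at 15.2% and 7.35% at 3 h, 41.3% and 39.9% at 6 h, and 72.7% and 77.0% at 12 h. On 6 of 6 shoot arrays at these times the share of COR15B was the higher one.

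In roots COR15A was at 1.99% and 1.33% of its 24 h mean at 6 h and at 12.5% and 18.1% at 12 h. COR15B was at 4.36% and 4.26% at 6 h and at 32.4% and 34.3% at 12 h, so its share was the higher one on 4 of 4 root arrays at these times. Before 6 h all root intensities were under 30, and the share of COR15B was the higher one already at 0.5 h, 1.15% and 1.08% against 0.0333% and 0.333% for COR15A. On the log2(intensity + 10) scale the shares of the 24 h change in roots at 6 h lay close together, at 24.2% for COR15A and 25.7% for COR15B. These shares are a description without a test, and whether both probe sets respond linearly over this range was not tested.

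**Figure D4:**
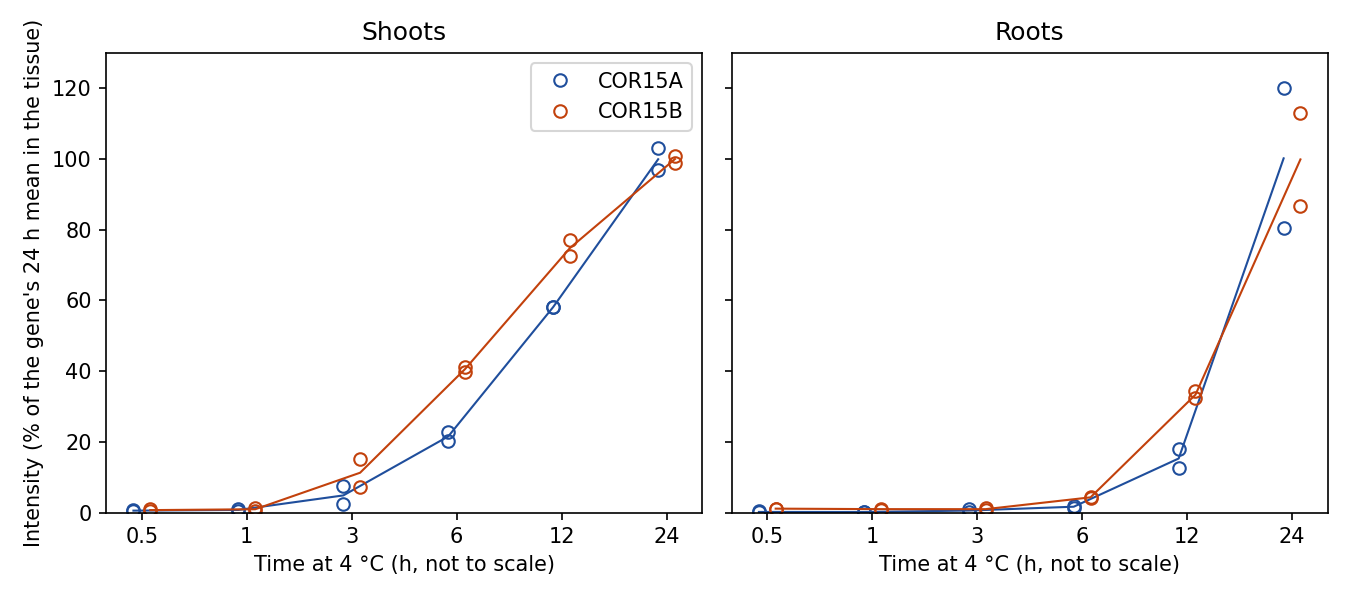
Intensity on each array as a percentage of the gene's own mean at 24 h in the same tissue, for shoots (left) and roots (right), COR15A in blue and COR15B in red. In shoots from 3 to 12 h and in roots at 6 and 12 h every COR15B point lies above the COR15A point of the same array; root points before 6 h come from intensities under 30.

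The levels of different probe sets cannot be compared, but a shift in their log ratio within an array can. In shoots the log2 ratio of COR15A over COR15B was -0.21 and -0.80 at 3 h, -0.03 and -0.14 at 6 h, 0.50 and 0.42 at 12 h, and 0.79 and 0.85 at 24 h. The arrays of these 4 times did not overlap, and the ratio was highest at 24 h. In roots it was -0.49 and -0.93 at 6 h, -0.81 and -0.37 at 12 h, and 0.43 and 0.62 at 24 h, with the 24 h arrays above the others.

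Pooled over 3 to 24 h, the ratio averaged 0.17 ± 0.57 (SD, n = 8) in shoots, against 0.42 ± 0.36 (SD, n = 4) at 0.5 and 1 h, a difference of -0.25 that did not pass an exact 2-sided permutation test (p = 0.4505). Here n counts arrays of several times, so the SD holds the change over time, from a mean of -0.51 at 3 h to 0.82 at 24 h. The tests within a tissue exchanged arrays between times as if they were replicates, and the pooled mean cannot show a shift between 3 and 24 h. In roots it averaged -0.24 ± 0.55 (SD, n = 8), against -0.92 ± 0.35 (SD, n = 4) at 0.5 and 1 h, a difference of 0.68 (exact permutation p = 0.05051). From 3 to 24 h, shoots exceeded roots in this ratio by 0.41, with tissues exchanged within each time (exact permutation p = 0.05556). With Benjamini-Hochberg adjustment over these 3 tests both p-values became 0.0833. The smallest p the tests allow is 0.00202 within a tissue and 0.00154 between tissues. Adding 1 in place of 10 before the log gave exact permutation p-values of 0.00404 in roots and 0.0355 between tissues, not adjusted over the 3 tests. With a floor of 30 the root difference turned to -0.23 (exact permutation p = 0.493).

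**Figure D5:**
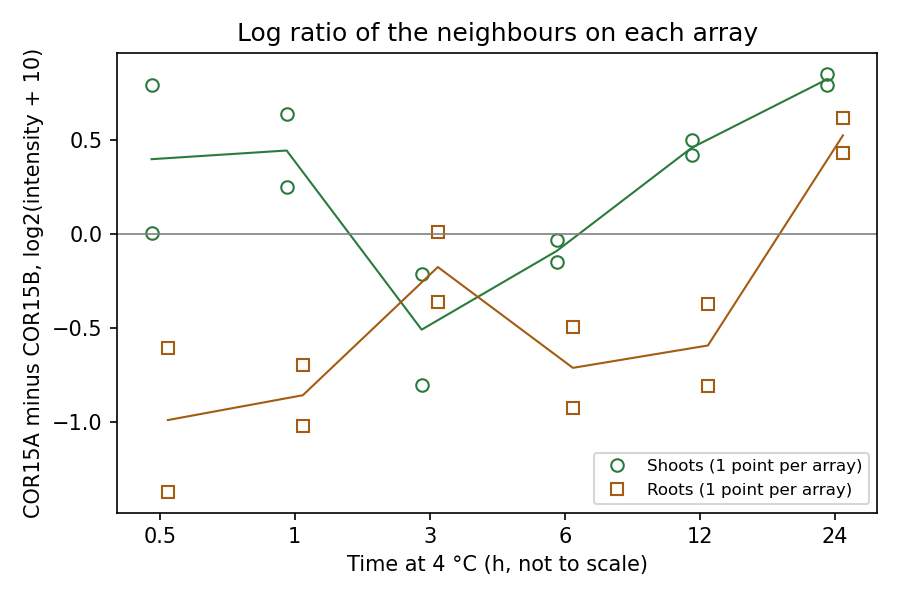
Log2 ratio of COR15A over COR15B within each array against time at 4 °C, for shoot arrays (circles) and root arrays (squares). In both tissues the 24 h arrays lie above those at 3, 6 and 12 h, and root values up to 3 h come from intensities under 30.

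The annotation used lists no gene for 8730 of 22746 probe sets, and it paired 1 of 16 listed regulators of the CBF pathway alone with a probe set, so the CBF genes were not analysed here. That gene was SIZ1, a SUMO ligase that stabilises the CBF activator ICE1. The brighter of its probe sets rose by 0.59 in shoots at 6 h (adjusted p = 0.00193), by 0.46 in roots at 12 h (adjusted p = 0.00944) and by 0.34 in roots at 24 h (adjusted p = 0.0303). The other probe set passed at no time and was at -0.25 in shoots at 6 h (adjusted p = 0.488), so they disagree.

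Of 24 other listed cold-regulated genes, 5 had a probe set under their name alone, and all 5 were called higher in shoots at 3 h, as were 5.29% of probe sets, and in roots at 6 h, as were 5.23%. COR47 and STZ were called in shoots already at 1 h, and LTI30, AT4G33980 and STZ in roots already at 3 h, when neither COR15 gene was. Their median change was 2.66 in shoots at 3 h and 2.45 in roots at 6 h, against medians of -0.09 and -0.08 over all tested probe sets. At 24 h, 4 of the 5 were called higher in shoots (19.2% of probe sets) and 5 of 5 in roots (15.5%). The dehydrin LTI30 changed by 8.17 in shoots and 2.99 in roots at 24 h, and COR47, another dehydrin, by 5.51 in shoots and 2.47 in roots. COR27, a cold-induced gene that acts on the circadian clock, changed by 6.83 in shoots and 6.15 in roots. At 0.5 h COR27 was under 30 in both tissues and LTI30 in shoots, so the sizes of those changes rest on the pseudocount. STZ, a zinc finger repressor, fell by 0.79 in shoots at 24 h (adjusted p = 0.0135), where 34.3% of probe sets were called lower.

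Between tissues, COR27 was called higher in shoots from 3 h on, as both COR15 genes were, by 1.93 at 3 h, 1.92 at 6 h, 1.46 at 12 h and 0.65 at 24 h. At 0.5 h its difference was -0.03 (adjusted p = 0.884), with both tissues under 30. The other 4 genes were called higher in shoots at none of the 6 times and lower at 0.5 h, as were 44.5% of probe sets. Of these, AT4G33980 was under 30 in both tissues at 0.5 h. LTI30 had 12.3 and 27.4 in shoots at 0.5 h, against 968 and 787 in roots, while both COR15 genes were under 30 in roots. At 24 h LTI30 and COR47 did not pass between tissues (0.24, adjusted p = 0.348, and 0.25, adjusted p = 0.41). In shoots none of the 5 was called higher between 12 and 24 h, beside 10.4% of probe sets, a step in which neither COR15 gene passed. AT4G33980 fell by 2.05 (adjusted p = 3.14e-07) and STZ changed by -1.098 (adjusted p = 0.00424), beside 12.4% of probe sets called lower.

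Of 11 other LEA genes listed, 5 had a probe set under their name alone and 3 were bright enough to test, while LEA18 and M17 were never at 30. Of the 3, LEA4-1 passed the filter through the shoot arrays at 24 h alone (63.5 and 53.3) and stayed under 30 on the others, so it is given without a count. LEA4-5 was under 30 up to 6 h in both tissues and passed the filter through its 12 and 24 h arrays alone, so it too is given without a count. DI21 was called at 3 h in neither tissue. It was called higher at 24 h in both, beside 19.2% of probe sets in shoots and 15.5% in roots. LEA4-5 had 3434 and 3531 in shoots at 24 h, against 63.8 and 85.2 at 12 h, and its 0.23 at 6 h against 0.5 h did not pass (adjusted p = 0.615). Its 24 h change was 8.14 in shoots and 6.40 in roots, sizes that rest on the pseudocount, since its 0.5 h intensities were under 30. DI21 changed by 4.44 in shoots and 0.94 in roots at 24 h.

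Over the 12 group means, COR15A and COR15B correlated at 0.9871 (Pearson's r of mean log2 values), and at 0.9881 within the 6 shoot groups and 0.9904 within the 6 root groups. COR15A was the probe set most like COR15B of all tested, and COR15B was at place 2 for COR15A. The gene most like COR15A was AT1G21670 (r = 0.989), followed by AT1G71710 (0.9801), AT3G55580 (0.9701), AT5G01750 (0.9671) and AT3G02750 (0.965). For COR15B, after COR15A itself, it was AT1G21670 as well (0.9832), then AT2G34930 (0.9745), AT1G51090 (0.9728), AT1G73480 (0.9703) and AT1G71710 (0.97). These correlations are descriptions over groups that share arrays and a time course.

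AT1G21670 had a mean intensity of 957 in shoots at 24 h, against 86.1 at 0.5 h, and of 709 in roots at 24 h, against 55.6 at 0.5 h. In each tissue both 24 h arrays lay above both 0.5 h arrays.

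Of the 3 genes to each side of the pair, only AT2G42520 and TBL39 were tested, and AT2G42520 was called higher in the cold. AT2G42520, next to COR15B, had 242 and 232 in shoots at 24 h, against 53.8 and 54.2 at 0.5 h. This was a change of 1.95 ± 0.16 (adjusted p = 1.6e-08), beside 19.2% of probe sets called higher. It was called higher in shoots at 6 h by 0.89 (adjusted p = 0.000475), as were 9.74% of probe sets. In roots at 12 h it was called higher by 0.80 (adjusted p = 0.00101), as were 9.93%, while its 0.49 in shoots at 3 h did not pass (adjusted p = 0.067). In the gene table the spans of AT2G42520 and COR15B overlap, and whether 1 probe set reads RNA of both genes was not tested.

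On the other side, AT2G42560 stayed between 0.673 and 3.93 on all 24 arrays and was not tested. TBL39, a member of the family that acetylates cell wall polymers, was brighter in roots at 24 h, with 18.8 and 28.4 in shoots against 236 and 229 in roots. Its change at 24 h was -0.30 in shoots (adjusted p = 0.161), and it fell by 0.48 in roots (adjusted p = 0.0337), where 32.5% of probe sets were called lower. The other neighbours within 3 genes of the pair were not analysed here.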

How the data were processed

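The authors deposited linear probe set intensities for 24 Affymetrix ATH1 arrays of total RNA, from MAS5, according to the submitters' processing notes. The sources used here do not give its version, detection calls or the genome build. Each array's mean intensity, trimmed by 2% at each end, was 100. Of 22746 probe sets (64 controls left out), 16073 reached 30 on 2 or more arrays and were tested. A pseudocount of 10, which shrinks the change of dim genes, was added before log2 was taken. Means of 12 groups were fitted with limma 3.58.1 in R 4.3.3, 2-sided, with 12 residual degrees of freedom and Benjamini-Hochberg adjustment within each comparison. The fit was tested on simulated data. The number of arrays limits the precision. Sample titles gave groups and replicate numbers. The platform annotation gave names, with 1 gene each for 13513 probe sets, and the brightest probe set stood for a gene with several.

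Named genes were both members, for each the 5 most correlated single-gene probe sets, 3 neighbours to each side, and up to 6 genes of a list, those with the 3 highest and 3 lowest changes in shoots at 24 h. The lists covered CBF regulators, cold-regulated genes, LEA proteins, green tissue and root markers. Members and lists were chosen with earlier results of these data known.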

Additional observations from a re-analysis of the deposited data

Results flagged for a closer look

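The change against 0.5 h was larger in shoots than in roots, by limma's test of the difference itself, for COR15A at 6 h by 3.20 (adjusted p = 0.00125) and at 12 h by 1.74 (adjusted p = 0.0374). For COR15B it was larger in shoots at 3 h by 3.70 (adjusted p = 6.62e-05), at 6 h by 3.97 (adjusted p = 7.46e-06) and at 12 h by 2.07 (adjusted p = 0.00181). With 1 added before the log neither COR15A difference passed (1.97 and 0.23), and the 12 h one also failed without the filter, with quantile normalization, against 1 h and without any 1 of 6 arrays. With a floor of 30 both COR15A differences passed, at 4.997 (adjusted p = 1.43e-05) at 6 h and 3.22 (adjusted p = 0.000351) at 12 h. The differences called in the main analysis were singled out because the tissues differed under the same contrast. Both arrays of each tissue at the later time and at 0.5 h enter each of them.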

How the results depend on the processing

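Over the alternatives other than leaving out arrays, 455 values kept their direction and side of the threshold, 12 lost a call, 11 gained one and 6 changed sign, and the cause was not tested for these. Adding 1 before the log gave, for COR15A, 1.43 between 6 and 12 h in shoots (adjusted p = 0.151), without a call. Its differences of change were then 1.97 at 6 h and 0.23 at 12 h, also without a call. The ratio differences of COR15A over COR15B were then 1.67 in roots and 0.49 between tissues. Their exact permutation p-values, 0.00404 and 0.0355, are not adjusted for the number of tests, and the counts above use them in this form. Adding 50 gave COR15A -0.0063 in roots at 1 h, 0.69 at 6 h without a call, and differences of change of 1.78 at 3 h (called) and 0.96 at 24 h. It gave COR15B 0.86 between 6 and 12 h in shoots (called), 0.43 between tissues at 1 h (not called) and 1.17 for the difference of change at 24 h (called). Without the filter the COR15A difference of change at 12 h, 1.735, was not called (adjusted p = 0.0569), nor was it with quantile normalization (1.39) or against 1 h (1.41). The root change of COR15A at 1 h was -0.012 with arrays centred on their medians and -0.041 with quantile normalization. Median centring also gave COR15B 0.98 between 6 and 12 h in shoots and 0.71 between tissues at 0.5 h, both called, and limma-trend gave 0.88 for that step, called. A floor of 30, added after the data were seen, left COR15A without a call in roots at 6 h (0.29) and between tissues at 0.5 h (0.42) and 1 h (0.82), and its differences of change were 2.91 at 3 h (called) and 1.30 at 24 h. For COR15B it gave 0.88 between 6 and 12 h in shoots (called), 0.42 between tissues at 1 h (not called) and 1.29 for the difference of change at 24 h (called), and the ratio difference in roots was -0.23. With single arrays left out, 1280 values kept direction and call, 17 lost a call, 16 gained one and 7 changed sign. The ranges for COR15A were -0.35 to 0.36 in roots at 1 h, 1.42 to 2.13 in roots at 6 h, 1.35 to 1.51 between 6 and 12 h in shoots, and 1.18 to 2.79 at 3 h, 1.38 to 2.09 at 12 h and -0.51 to 0.20 at 24 h for the difference of change. Its step between 6 and 12 h in shoots was not called without any 1 of those 4 arrays. The 12 h difference of change was not called without either shoot array at 0.5 h or 12 h, root replicate 2 at 0.5 h or root replicate 1 at 12 h, and the 3 h one was called without shoot replicate 2 (2.79) or root replicate 2 (2.45) at 3 h. The ranges for COR15B were -0.17 to 0.75 in shoots at 1 h, -0.25 to 0.0039 in roots at 1 h, -0.43 to 0.13 in roots at 3 h, 0.84 to 0.92 between 6 and 12 h in shoots, 1.36 to 1.93 between 3 and 6 h and 1.36 to 1.74 between 12 and 24 h in roots, and 0.44 to 1.36 between tissues at 1 h. COR15B lost its calls between tissues at 1 h without replicate 2 of either tissue (0.44 in shoots, 0.77 in roots), between 3 and 6 h in roots without either 6 h array (1.63 and 1.66), and between 12 and 24 h in roots without replicate 2 at 24 h (1.36). The ratio differences ranged over 0.54 to 0.79 in roots and 0.34 to 0.48 between tissues. Their p-values with arrays left out are also not adjusted for the number of tests. In roots the test passed without replicate 2 at 0.5 h (p = 0.0485) or 6 h (p = 0.0303) or replicate 1 at 12 h (p = 0.0303), by exact permutation, and between tissues without shoot replicate 2 at 3 h (p = 0.0123) or root replicate 2 at 3 h (p = 0.034) or 24 h (p = 0.0478). The count of 453 probe sets called in shoots at 1 h was 762 with 50 added, 921 with the floor and 205 fitted on shoots alone, and with the floor the counts of 3 in roots at 1 h, 226 between 3 and 6 h in roots and 330 for the difference of change at 3 h were 11, 399 and 560. Against 1 h, 571 of the shoot, 162 of the root and 166 of the difference probe sets were called at 3 h, where 1238, 393 and 330 were against 0.5 h. With single arrays left out, the counts ranged over 112 to 2210 in shoots at 1 h, 205 to 1254 in roots at 3 h and 94 to 918 between 3 and 6 h in roots, with the highest without shoot replicate 2 at 1 h in the first and without root replicate 1 at 3 h in the others. Same-numbered arrays did not deviate in a common direction (correlations of -0.45 to 0.33 over 66 pairs of groups, median -0.0088, 9 over 0.1 and 10 under -0.1). The numbers were therefore read as names of samples only, though some pairs of groups did share deviations. With the replicate number as a block, all 52 values kept direction and call, among them COR15A at 24 h, 7.19 in shoots and 7.34 in roots. Intensities under 30 limit the root values up to 3 h.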
